A study of Mus musculus with 8 samples.

Results

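Tjp1, Col5a1, Cdh5, Stab2, Gpc1, Sulf2, Pkd1l3 and Parm1 are 8 genes of cell junctions, extracellular matrix, endothelium and related surface proteins whose RNA was low in sorted mouse blood stem and progenitor cells labelled Hira KO. They were chosen by that decrease, so their differences between the groups are given as a description, with no test. All 8 were found by symbol among the 45706 genes of the RNA files, and all 8 were among the 16258 genes that passed the filter on low counts. By known role Tjp1 and Cdh5 are junction genes, Col5a1, Gpc1 and Sulf2 belong to the matrix and its heparan sulfate, and Stab2, with Cdh5, marks endothelium. Pkd1l3 and Parm1 encode membrane proteins outside these roles.

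RNA sequencing and ATAC-seq, in which a transposase marks open chromatin, were run on LSK cells of C57BL/6 bone marrow. The LSK gate takes cells without lineage markers that carry Sca1 and Kit, and it holds blood stem cells and multipotent progenitors. The libraries labelled Hira KO came from mice with a conditional deletion of Hira, a chaperone of histone H3.3, and those labelled WT from wild-type mice, with 2 libraries per group and assay. The labels do not name the Cre driver or the age of the mice. They also do not say whether libraries of a group came from separate mice, so p-values measure the spread between these libraries. Expected counts summed to 17.5 and 19.4 M per RNA library in labelled Hira KO and to 16.6 and 19.8 M in labelled WT, with 40.8% to 53.1% of counts on mitochondrially encoded genes. Kit stood at 96.5 and 70.1 TPM in labelled Hira KO and at 81.9 and 79.3 TPM in labelled WT, and Ly6a, which encodes Sca1, at 47.7 and 53.1 TPM in labelled Hira KO and at 22.4 and 15.2 TPM in labelled WT. Labelled WT replicate 2 held 906 counts of the Y-linked gene Ddx3y, against 1 or 2 in each of the other libraries. It held 1470 counts of Xist, a gene expressed in female cells, against 169234 to 232764 in the others. By these genes labelled WT replicate 2 looked male and the other libraries female. Sex was not a term in any fit.

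Hira RNA did not follow the labels. It stood at 24.4 and 23.3 CPM (scaled counts) in labelled Hira KO, against 16.5 and 17.2 CPM in labelled WT. The log2 fold change was 0.50 (SE 0.19, edgeR adjusted p 0.180, labelled Hira KO over labelled WT). Both labelled Hira KO libraries lay above both labelled WT libraries, as in 28.3% of all tested genes. Per transcript length, Hira stood at 16.9 and 16.9 TPM in labelled Hira KO and at 16.8 and 11.1 TPM in labelled WT. The names of all 8 deposited files carry the genotype opposite to their titles. Libraries are called by their titles throughout, and every direction given here rests on those titles. Whether these reads came from exons outside the deleted part was not tested, so this value checks the labels only in part.

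Tight junctions seal neighbouring cells together, and adherens junctions hold them by cadherins anchored to the actin skeleton. The matrix around cells is built of collagens and of proteoglycans, whose heparan sulfate chains bind growth factors and are trimmed by sulfatases. In bone marrow, sinusoidal endothelium lines the vessels through which blood cells leave, and it is known for VE-cadherin at its contacts and for stabilin scavenger receptors that clear waste from blood. Blood stem cells share several surface proteins with endothelium, from which they arise in the embryo.

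The 250 bases before the annotated start were available for 6 of the 8 genes in a RefSeq table of GRCm38.p6. Those of Tjp1 and Parm1 are shown because an open region covered the start in all 4 ATAC lists, and those of Col5a1 and Stab2 because no list had a region there. They are Tjp1 at chr7:65371245-65371494 (minus strand), Parm1 at chr5:91517450-91517699 (plus strand), Col5a1 at chr2:27886175-27886424 (plus strand) and Stab2 at chr10:87007943-87008192 (minus strand), each written 5′ to 3′ toward the gene. Capitals mark matches, on either strand, to GATAA (the core of GATA factor motifs), CCGGAA (ETS factors), TGTGGT (RUNX factors), GGGCGG (the GC box), CAGCTG (an E-box) or TGANTCA (AP-1).
Tjp1: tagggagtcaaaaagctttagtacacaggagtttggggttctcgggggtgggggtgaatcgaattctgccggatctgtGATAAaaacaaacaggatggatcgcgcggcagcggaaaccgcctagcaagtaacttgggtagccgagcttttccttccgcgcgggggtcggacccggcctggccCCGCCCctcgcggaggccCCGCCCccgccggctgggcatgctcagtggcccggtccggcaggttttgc
Parm1: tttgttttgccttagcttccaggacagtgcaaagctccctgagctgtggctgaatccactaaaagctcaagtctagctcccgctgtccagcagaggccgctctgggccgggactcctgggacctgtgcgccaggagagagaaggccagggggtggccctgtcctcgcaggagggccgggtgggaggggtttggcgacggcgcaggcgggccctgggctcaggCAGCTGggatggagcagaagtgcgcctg
Col5a1: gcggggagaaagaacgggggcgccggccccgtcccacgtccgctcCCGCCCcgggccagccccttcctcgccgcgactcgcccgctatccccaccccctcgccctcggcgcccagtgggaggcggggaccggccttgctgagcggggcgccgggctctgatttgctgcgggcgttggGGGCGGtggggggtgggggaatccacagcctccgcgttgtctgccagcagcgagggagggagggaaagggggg
Stab2: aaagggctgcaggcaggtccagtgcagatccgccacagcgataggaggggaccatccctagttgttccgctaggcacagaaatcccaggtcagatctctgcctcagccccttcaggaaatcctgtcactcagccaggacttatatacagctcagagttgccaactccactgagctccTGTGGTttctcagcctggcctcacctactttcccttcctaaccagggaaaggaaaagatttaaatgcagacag

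The promoters differed in make-up among themselves. The Col5a1 window held 28 CpG dinucleotides and was 76.4% G or C, and 92.4% of 32851 promoters held fewer CpG. The Tjp1 window held 22 CpG (85.2% of promoters held fewer) and the Parm1 window 11 CpG (64.4%). The Stab2 window held 3 CpG, with 29.0% of promoters holding fewer, and the median promoter held 6. Tjp1 and Col5a1 each had 2 matches to GGGCGG or its reverse CCGCCC, a motif present in 32.7% of all promoters of this length. Tjp1 had 1 match to GATAA, present in 22.6%. Parm1 had 1 match to CAGCTG, present in 13.0%, and Stab2 had 1 match to TGTGGT, present in 14.1%. None of the 4 windows held CCGGAA or TGANTCA, found in 12% and 6.75% of promoters. CAGCTG and TGANTCA read the same on both strands, and no matches of different motifs overlapped here. These are matches of letters, and binding was not measured.

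The low RNA covered genes of every role. In all 8 genes both labelled Hira KO libraries lay below both labelled WT libraries, which was true of 27.8% of all tested genes and was fixed by the choice of the genes. Their log2 fold changes, labelled Hira KO over labelled WT, ran from -3.20 for Tjp1 to -1.78 for Parm1, with a median of -2.52. The median over all tested genes was 0.01, and 90% of them lay between -1.04 and 1.58. edgeR called 0.48% of tested genes lower and 1.32% higher in labelled Hira KO (78 and 214 genes at an adjusted p below 0.05). A decrease as large as that of Parm1 or larger was found in 267 tested genes. In bulk RNA, fewer cells of a type and less RNA per cell cannot be told apart.

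**Figure D1:**
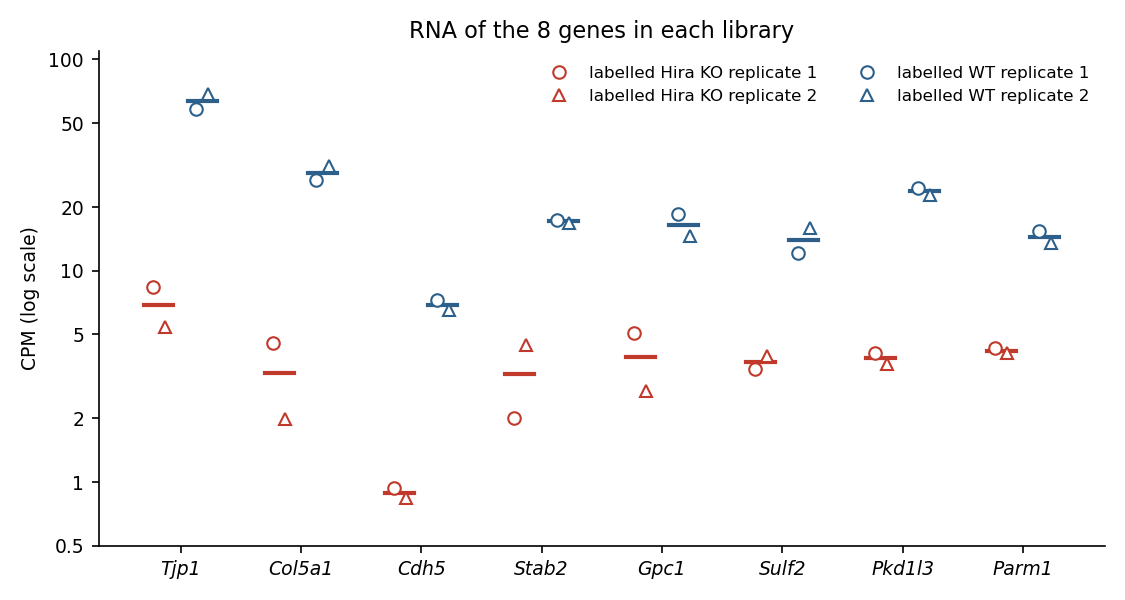
RNA of the 8 genes in each library, as CPM on a log scale; points are libraries, bars are group means, and labelled Hira KO stands left of labelled WT. For every gene the labelled Hira KO points lie below the labelled WT points, with the widest gap at Tjp1 (8.34 and 5.41 CPM in labelled Hira KO, 58.1 and 68.5 CPM in labelled WT).

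Tjp1 encodes ZO-1, the scaffold that ties tight junction proteins to actin. It had 161 and 90 counts in labelled Hira KO, against 1098 and 1252 counts in labelled WT. On the CPM scale this was 8.34 and 5.41 in labelled Hira KO and 58.1 and 68.5 in labelled WT, or 6.88 ± 2.07 and 63.3 ± 7.34 CPM (mean ± SD, n = 2 each). The log2 fold change was -3.20, and the log2 ratios between single libraries of the 2 groups ran from -3.66 to -2.80. Tjp1 was the most abundant of the 8 in labelled WT per transcript length, at 1.64 and 0.85 TPM in labelled Hira KO and 12.6 and 11.2 TPM in labelled WT. Among tested genes this was percentile 22.7 and 16.8 in labelled Hira KO, and percentile 66.8 and 70.5 in labelled WT.

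Cdh5 encodes VE-cadherin, the cadherin of endothelial adherens junctions. It was the least abundant of the 8, with 18 and 14 counts in labelled Hira KO (exact Poisson 95% intervals 10.7 to 28.4 and 7.65 to 23.5) and 137 and 119 counts in labelled WT (115.0 to 162.0 and 98.6 to 142.4). Such intervals cover counting error only. The levels were 0.933 and 0.841 CPM in labelled Hira KO and 7.25 and 6.51 CPM in labelled WT. The log2 fold change was -2.94. The libraries within each group lay close together, and log2 ratios between single libraries ran from -3.11 to -2.80.

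Col5a1 encodes the alpha-1 chain of type V collagen, which sets the diameter of collagen fibrils. It had 88 and 33 counts in labelled Hira KO, against 507 and 574 counts in labelled WT. In CPM it stood at 4.56 and 1.98 in labelled Hira KO and at 26.8 and 31.4 in labelled WT (3.27 ± 1.82 and 29.1 ± 3.23, mean ± SD, n = 2 each). The log2 fold change was -3.14, and log2 ratios between single libraries ran from -3.98 to -2.56, the widest span of the 8. The low end came from labelled Hira KO replicate 2, and without labelled Hira KO replicate 1 the log2 fold change was -3.89.

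Gpc1 encodes glypican-1, a heparan sulfate proteoglycan held in the membrane by a lipid anchor. It had 98 and 45 counts in labelled Hira KO and 349 and 266 counts in labelled WT. The levels were 5.08 and 2.70 CPM in labelled Hira KO and 18.5 and 14.6 CPM in labelled WT, a log2 fold change of -2.08. Without labelled Hira KO replicate 1 it was -2.63.

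Sulf2 encodes an extracellular sulfatase that removes sulfate groups from heparan sulfate chains. It had 66.2 and 66.3 expected counts in labelled Hira KO and 229.4 and 292.2 in labelled WT. In CPM this was 3.42 and 3.97 in labelled Hira KO and 12.1 and 16.0 in labelled WT, with a log2 fold change of -1.93. Here the labelled Hira KO libraries lay close together and the labelled WT libraries were further apart.

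Stab2 encodes stabilin-2, the scavenger receptor by which sinusoidal endothelium takes up hyaluronan. It had 39 and 74 counts in labelled Hira KO and 330.0 and 309.0 in labelled WT. The levels were 2.02 and 4.45 CPM in labelled Hira KO and 17.5 and 16.9 CPM in labelled WT, with a log2 fold change of -2.42. Replicate 1 was the lower library in labelled Hira KO, unlike in Tjp1, Col5a1, Cdh5, Gpc1, Pkd1l3 and Parm1. Without labelled Hira KO replicate 2 the log2 fold change of Stab2 was -3.09.

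Pkd1l3 encodes a polycystin-1-like membrane protein known from taste cells, where it pairs with a channel subunit. It had 79 and 60 counts in labelled Hira KO and 467.8 and 417.1 in labelled WT, or 4.09 and 3.61 CPM in labelled Hira KO and 24.8 and 22.8 CPM in labelled WT. The log2 fold change was -2.62, and log2 ratios between single libraries stayed within -2.78 to -2.48.

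Parm1 encodes a mucin-like membrane protein named for its androgen regulation in rat prostate. It had 83 and 68 counts in labelled Hira KO and 290 and 247 counts in labelled WT. In CPM it stood at 4.30 and 4.09 in labelled Hira KO and at 15.4 and 13.5 in labelled WT. The log2 fold change of -1.78 was the smallest decrease of the 8, and log2 ratios between single libraries ran from -1.91 to -1.65.

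In 6 of the 8 genes labelled Hira KO replicate 2 lay below replicate 1, and in 5 of the 8 labelled WT replicate 2 lay below replicate 1. Over the alternatives tried, all 88 log2 fold changes of the 8 genes lay below 0. On log2(TPM + 1), where the added 1 shrinks low values, the median was -1.77 in place of -2.52. Reads that could not be placed in 1 gene added an SD of at most 1 count per library to any of the 8. Strand is not stated for the RNA libraries, so reads of a gene and of an overlapping gene cannot be told apart. Tjp1 and Parm1 have no overlapping gene in the RefSeq table, and each of the other 6 has at least 1. These include Gm13372 over Col5a1, Gm29682 over Cdh5, Ankmy1 over Gpc1, Gm16271 over Stab2, Gm52534 over Sulf2 and Ist1 over Pkd1l3.

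The mean transcript length, weighted by the abundance of each transcript, also varied for some of the genes. It is estimated from which parts of a gene the reads cover, and TPM divides by it. For Sulf2, with 7 annotated transcripts, it was 4167 and 4532 bases in labelled Hira KO and 3076 and 2546 bases in labelled WT. For Gpc1, with 5 transcripts, it was 3699 and 4176 bases in labelled Hira KO and 3214 and 3206 bases in labelled WT. In both genes the groups did not overlap, and the longer values were in labelled Hira KO, where the counts behind them were 45 to 98. Stab2 had 8228 and 6957 bases in labelled Hira KO and 3728 and 7269 bases in labelled WT. Its groups overlapped, and labelled WT replicate 1 alone was short. With that library's length Stab2 stood at 0.32 and 0.62 TPM in labelled Hira KO and at 6.51 and 2.39 TPM in labelled WT, although its CPM was nearly equal in the labelled WT libraries. Tjp1 had 6652 and 6200 bases in labelled Hira KO and 6251 and 6320 bases in labelled WT, which overlapped. Pkd1l3 varied by less than 1% (6456 and 6468 bases in labelled Hira KO, 6494 and 6490 in labelled WT). Its groups did not overlap either, with the shorter values in labelled Hira KO. Col5a1, Cdh5 and Parm1 had 1 length in all libraries. No test was made of these lengths. The share of all genes whose lengths did not overlap between the groups was not computed, so these separations are a description only.

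**Figure D2:**
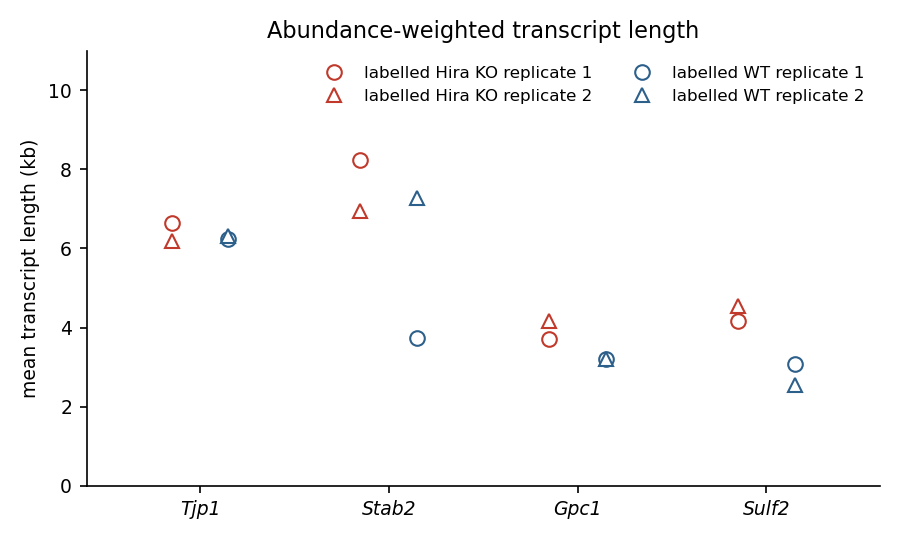
Abundance-weighted transcript length in kb for the 4 genes with more than 2 annotated transcripts; points are libraries, labelled Hira KO left of labelled WT. The labelled Hira KO values of Gpc1 and Sulf2 lie above the labelled WT values, and Stab2 in labelled WT replicate 1 (3728 bases) lies far below the other 3 libraries.

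Per length, the order of the genes in labelled WT was set apart only at the ends. Tjp1 (12.6 and 11.2 TPM) lay above all the others, and Cdh5 (2.52 and 1.72 TPM) overlapped with Stab2 alone. In between, Gpc1 had 8.07 and 4.86 TPM, Sulf2 5.56 and 6.86, Stab2 6.51 and 2.39, Pkd1l3 5.16 and 3.62, Col5a1 4.29 and 3.82 and Parm1 4.14 and 2.78 TPM, and neighbours in this order overlapped. In labelled Hira KO all 8 lay between 0.21 TPM (Cdh5) and 1.85 TPM (Gpc1), and neighbours in the order of levels overlapped there too.

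The ATAC lists give open regions as the authors' caller set them, separately for each library, and no read totals come with them. The lists held 92839 and 73715 peaks in labelled Hira KO and 79565 and 63422 in labelled WT, and merging peaks that shared at least 1 base gave 112479 regions. Fold enrichment, the authors' ratio to the caller's background, was not scaled between lists, so the values below were not tested. Within 10 kb of the 8 genes, 7 regions were called in both labelled WT lists and in neither labelled Hira KO list, 4 of them at Tjp1 and 3 at Col5a1. At least 1 such region lay near 17% of the 14052 tested genes that had a position in the RefSeq table. In the other direction 1 region, near Pkd1l3, was called in both labelled Hira KO lists only, and 22.5% of genes had at least 1. That region lay beyond the end of Pkd1l3 and inside the overlapping gene Ist1. Of genes of 200 kb or more, as Tjp1, 30.8% had a region of labelled WT only and 3.30% had 3 or more. Of genes of 100 to 200 kb, as Col5a1, 21.2% had 1 or more and 1.91% had 3 or more. With peaks limited to a -log10 q of at least 5, 3 regions of labelled WT only and 3 of labelled Hira KO only were left near the 8 genes. With 1 list left out, a region needed a call in, or absence from, only 1 list of that group. The rule was then looser, so the counts that follow could hardly fall. Without ATAC labelled WT replicate 2, 19 regions were of labelled WT only. Regions of labelled Hira KO only numbered 13 without ATAC labelled Hira KO replicate 2, 3 without labelled Hira KO replicate 1 and 6 without labelled WT replicate 1.

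Regions called in all 4 lists could be set side by side. The 8 genes had 20 of them, of which 8 had lower fold enrichment in both labelled Hira KO lists than in both labelled WT lists and 5 had higher. Over all 45779 such regions, 17.7% were lower and 24.9% higher in labelled Hira KO. Regions of 1 gene are not independent of each other, so these counts are a description.

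At Tjp1 (chr7:65296165-65527850, minus strand), 18 regions were called within 10 kb, 5 of them in all 4 lists. The region over the annotated start, chr7:65370215-65371953, holds the promoter printed above. Its fold enrichment was 11.2 and 7.89 in labelled Hira KO and 29.8 and 16.1 in labelled WT. Within its own list this was percentile 71.3 and 51.4 in labelled Hira KO and percentile 85.7 and 75.2 in labelled WT, so the groups did not overlap on either scale. The region 22.5 kb downstream of that start (chr7:65348529-65348971) had 3.50 and 5.15 in labelled Hira KO and 10.8 and 11.8 in labelled WT. The 4 regions of labelled WT only lay 4.89, 13.2 and 16.1 kb downstream and 50.4 kb upstream of that start, all inside the gene, which extends upstream to a further 5′ end. Their fold enrichments were 3.28 to 5.97, low within the labelled WT lists, with percentiles of 2.27 to 47.0.

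Col5a1 (chr2:27886381-28039510, plus strand) had no region at its start, and 9 of its 10 regions lay 87.7 to 145.9 kb downstream, within the gene body. In 3 of its 5 regions called in all 4 lists, labelled Hira KO was lower in both lists. The region chr2:27981451-27982715, 95.7 kb from the start, had 7.46 and 15.4 in labelled Hira KO and 19.6 and 18.1 in labelled WT. The region chr2:28000163-28001085 had 10.5 and 12 in labelled Hira KO and 19.2 and 13.5 in labelled WT. The last of these 3, chr2:27983885-27984268, had 4.66 and 5.49 in labelled Hira KO and 8.08 and 9.19 in labelled WT. The 3 regions of labelled WT only had fold enrichments of 3.08 to 4.27.

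**Figure D3:**
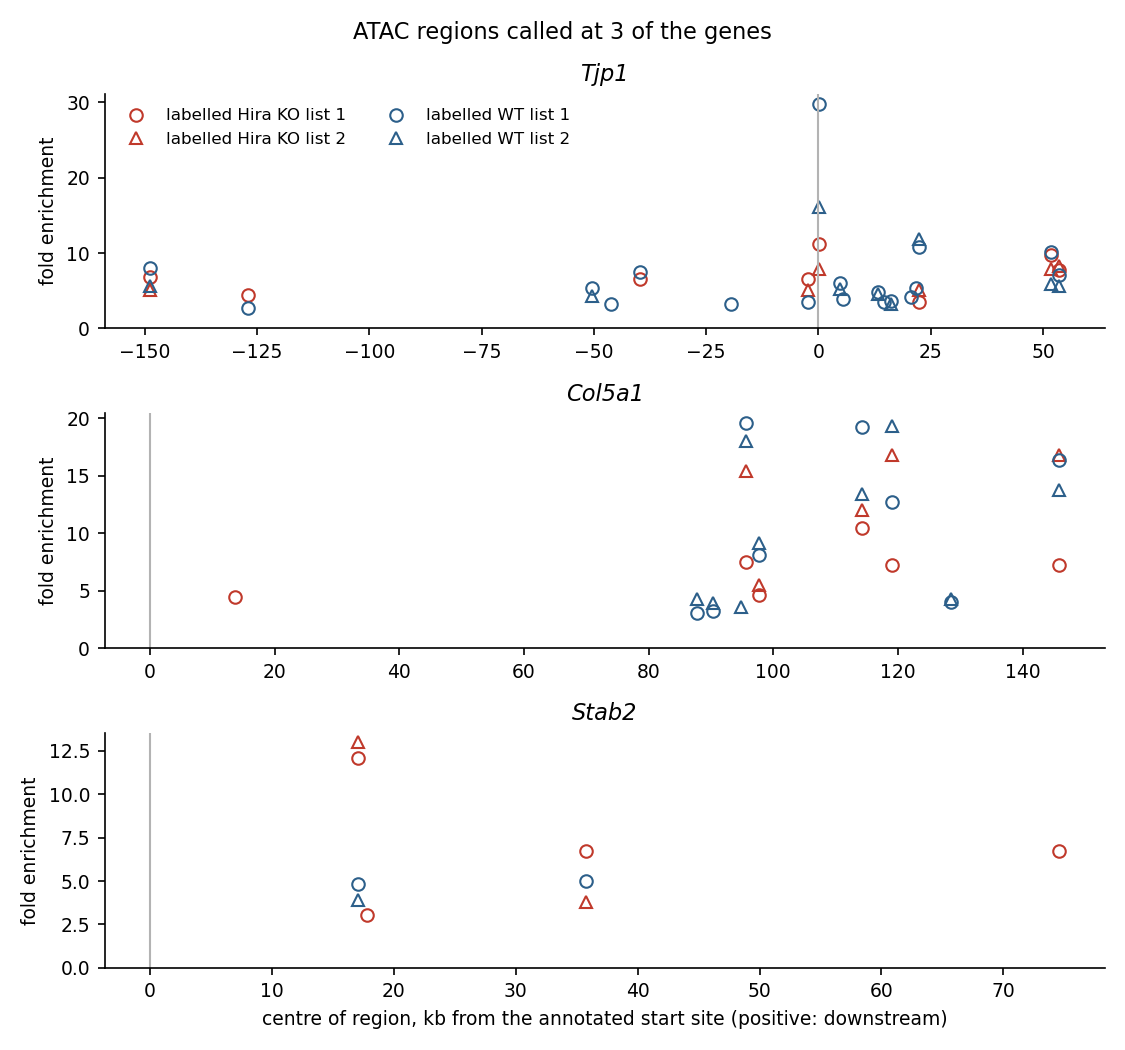
ATAC regions called within 10 kb of Tjp1, Col5a1 and Stab2, by the distance of the region's centre from the annotated start in kb and the authors' fold enrichment in each list; a list with no point did not call the region. At Tjp1 the labelled WT points lie above the labelled Hira KO points at the start and 22.5 kb downstream, and at Stab2 the labelled Hira KO points lie above at 17.0 kb.

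At Cdh5 and Stab2 the shared regions lay the other way from the RNA. The single shared region of Stab2 (chr10:86990613-86991220, 17.0 kb downstream of the start) had a fold enrichment of 12.1 and 13.0 in labelled Hira KO and 4.81 and 3.94 in labelled WT. Inside Cdh5 the region chr8:104110770-104111190 had 13.8 and 15.4 in labelled Hira KO and 6.93 and 9.85 in labelled WT. The other shared region of Cdh5, chr8:104098966-104099750, lay outside the gene body and had 8.63 and 5.15 in labelled Hira KO and 3.46 and 3.94 in labelled WT. In all 3 the labelled Hira KO lists lay above the labelled WT lists, while the RNA of both genes was lower in labelled Hira KO.

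At the other genes differences were smaller or mixed. The start of Parm1 (chr5:91517335-91518172) had 48.7 and 27.8 in labelled Hira KO and 54.3 and 31.5 in labelled WT, values that overlapped. The other shared region of Parm1 (chr5:91618626-91619102) had 4.20 and 3.78 in labelled Hira KO and 10.8 and 4.92 in labelled WT, with labelled Hira KO lower in both lists. The region just inside Pkd1l3 (chr8:109614247-109615021) had 10.3 and 5.49 in labelled Hira KO and 12.3 and 6.89 in labelled WT, which also overlapped. The strong region 5.74 kb upstream of the Pkd1l3 start spans the high-coordinate end of Dhodh. It had 144.8 and 133.8 in labelled Hira KO and 176.6 and 147.7 in labelled WT, with labelled Hira KO lower in both lists. At Gpc1 the region across its low-coordinate end (chr1:92831099-92832053) had 12.6 and 4.80 in labelled Hira KO and 8.66 and 3.94 in labelled WT, which overlapped. The other shared region of Gpc1 (chr1:92834002-92834392) had 5.36 and 4.80 in labelled Hira KO and 3.85 and 3.61 in labelled WT, higher in both labelled Hira KO lists. As percentiles within each list this was 38.7 and 19.44 in labelled Hira KO and 20.15 and 5.34 in labelled WT, which overlapped. At Sulf2 a region over the start was called in labelled Hira KO replicate 2 alone. The single shared region of Sulf2 (chr2:166080475-166080863) had 9.56 and 9.61 in labelled Hira KO and 14.6 and 12.1 in labelled WT, with labelled Hira KO lower in both lists.

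Genes of the same pathways, taken from 8 lists and without the 8 genes themselves, did not move one way. Of 185 tested, 5 passed as lower and 5 as higher in labelled Hira KO, 2.70% in each direction, beside 0.48% and 1.32% of all tested genes. Their median log2 fold change was 0.09, and 86 of 185 lay below 0, against 49.1% of all tested genes. All 10 calls were lost without labelled WT replicate 1 and all 10 without labelled WT replicate 2 (edgeR adjusted p 0.223 to 0.454 over both fits), with all 10 directions kept. DESeq2 passed 11 lower and 13 higher.

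Among tight junction genes 30 others were tested, with a median of 0.09. edgeR passed 0 lower (3 at an unadjusted p below 0.05, 1 by DESeq2) and 2 higher. F11r, which encodes the junctional adhesion molecule JAM-A, had 12.9 and 11.5 CPM in labelled Hira KO and 3.23 and 3.28 CPM in labelled WT (log2 fold change 1.91, SE 0.28, edgeR adjusted p 0.0347). Patj, a polarity scaffold of tight junctions, had 12.9 and 23.5 CPM in labelled Hira KO and 4.66 and 4.27 CPM in labelled WT (2.02, SE 0.34, edgeR adjusted p 0.0427). Both rose in labelled Hira KO, where Tjp1 was low. Tjp3, a paralog of Tjp1, did not pass (log2 fold change -0.46, SE 0.57, edgeR adjusted p 0.677).

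Among cadherin and adherens junction genes 1 of 23 others passed, with a median of -0.04. Ptprb, which encodes VE-PTP, the endothelial phosphatase that binds VE-cadherin, fell to 0.622 and 1.02 CPM in labelled Hira KO, against 7.15 and 5.85 CPM in labelled WT (log2 fold change -2.98, SE 0.45, edgeR adjusted p 0.0347). Its size was close to that of Cdh5 (-2.94). None passed as higher by edgeR, with 4 at an unadjusted p below 0.05 and 2 by DESeq2. The abundant Ctnnb1, encoding beta-catenin, stood at 80.4 and 98.9 CPM in labelled Hira KO and at 96.6 and 101.9 CPM in labelled WT, with overlapping groups.

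In the collagen list 1 of 34 others passed as lower and 0 as higher (4 higher at an unadjusted p below 0.05, 2 by DESeq2), with a median of 0.08. Col6a3, a chain of type VI collagen, had 0.104 and 0.120 CPM in labelled Hira KO and 2.43 and 1.97 CPM in labelled WT (log2 fold change -4.22, SE 0.77, edgeR adjusted p 0.0486). These labelled Hira KO levels are 2 counts per library, so the size of the fold is poorly fixed. Col5a2 and Col5a3, the partner chains of Col5a1 in type V collagen, were not tested, having at most 4 and 16 counts in any library. Among other matrix genes 3 of 29 passed, with a median of 0.15. Emilin2, a matrix glycoprotein gene of the EMILIN family, fell to 9.43 and 8.78 CPM in labelled Hira KO, against 24.1 and 27.1 CPM in labelled WT (-1.49). Ltbp3, which binds latent TGF-beta, rose to 40.1 and 24.1 CPM in labelled Hira KO, against 8.89 and 7.77 CPM in labelled WT (1.95), and the laminin chain gene Lama4 also rose, with 2.07 and 5.41 CPM in labelled Hira KO and 0.106 and 0.219 CPM in labelled WT (4.47).

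Heparan sulfate genes had 2 lower calls and 0 higher among 31 others (2 higher at an unadjusted p below 0.05, 0 by DESeq2), with a median of -0.07. Hspg2, encoding the basement membrane proteoglycan perlecan, fell to 0.466 and 0.902 CPM in labelled Hira KO, against 8.10 and 9.57 CPM in labelled WT (log2 fold change -3.69, SE 0.44, edgeR adjusted p 0.0219). Xylt1, the xylosyltransferase that starts these sugar chains, fell to 12.1 and 12.1 CPM in labelled Hira KO, against 28.6 and 30.6 CPM in labelled WT (-1.29). The family members nearest to Gpc1 and Sulf2 did not pass, with log2 fold changes of 0.10 for Gpc2, -1.68 for Gpc3, -0.07 for Gpc4, 0.18 for Gpc6 and 2.66 for Sulf1. Sulf1 rested on 10 and 21 counts in labelled Hira KO and 2 and 3 counts in labelled WT.

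Scavenger receptor genes had 0 lower calls (5 at an unadjusted p below 0.05, 2 by DESeq2) and 1 higher among 18 others, with a median of -0.14. The higher one was Mrc2, an endocytic collagen receptor, with 3.63 and 11.9 CPM in labelled Hira KO and 0.318 and 0.164 CPM in labelled WT (log2 fold change 4.96, edgeR adjusted p 0.0382). Stab1, the paralog of Stab2, had 8.16 and 16.1 counts in labelled Hira KO and 94.4 and 54.1 counts in labelled WT. Its log2 fold change was -2.53 (edgeR adjusted p 0.0730), close in size to that of Stab2, and it did not pass. In the polycystin list edgeR passed 0 of 4 others (1 lower and 2 higher at an unadjusted p below 0.05, 1 lower by DESeq2), with 0.45 for Pkd1 and 0.54 for Pkd2 and a median of 0.50. In the mucin list it passed 0 of 16 others (3 higher at an unadjusted p below 0.05, 1 by DESeq2), with a median of 0.39.

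The label of the genes as endothelial was checked against 33 endothelial markers, Cdh5 and Stab2 among them. Of 31 others 24 were tested, 12 lay below 0 and 12 above, and the median was -0.002. edgeR passed 2 lower, Ptprb and Flt4, and 2 higher, Robo4 and Adgrl4. At an unadjusted p below 0.05 by edgeR 7 were lower and 7 higher, and DESeq2 passed 4 lower and 5 higher. Flt4, the receptor VEGFR3, had 0.22 and 0.21 TPM in labelled Hira KO and 1.69 and 1.28 TPM in labelled WT (log2 fold change -2.70, SE 0.38, edgeR adjusted p 0.0336). Kdr and Flt1, encoding the other VEGF receptors, did not pass, at -1.55 (edgeR adjusted p 0.0880) and -2.04 (0.0998). Fabp4, a fatty acid binding protein of capillaries and fat cells, lay at the threshold with -3.18 (0.0503). On the other side Robo4, a guidance receptor shared with blood stem cells, had 9.66 and 6.88 TPM in labelled Hira KO and 3.22 and 1.97 TPM in labelled WT (1.77, edgeR adjusted p 0.0245). Adgrl4 had 712.3 and 702.7 TPM in labelled Hira KO and 342.5 and 329.3 TPM in labelled WT (1.09, edgeR adjusted p 0.0429). Esam (1.76, edgeR adjusted p 0.0824), Tie1 (1.19, 0.0759), Emcn (1.07, 0.0723), Erg (0.82, 0.0591) and Eng (0.64, 0.0732) did not pass. None of the 4 calls passed without labelled WT replicate 1 or without labelled WT replicate 2 (edgeR adjusted p 0.257 to 0.459), and all 4 passed without either labelled Hira KO library.

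The summed level of the endothelial list was 971 and 869 TPM in labelled Hira KO and 555 and 505 TPM in labelled WT, most of it Adgrl4. Without Adgrl4 it was 259.3 and 167.1 TPM in labelled Hira KO and 221.5 and 179.6 TPM in labelled WT, which overlapped. Cdh5, Kdr, Flt1, Flt4, Ptprb and Fabp4 were scarce, at or below 2.52 TPM in every library. The water channel gene Aqp1 was more abundant, at 18.7 and 2.23 TPM in labelled Hira KO and 43.4 and 33.5 TPM in labelled WT, and did not pass (log2 fold change -1.95, edgeR adjusted p 0.371). Cldn5 and Sox17, markers of endothelial junctions and of arteries, were listed at 0 in both labelled Hira KO libraries. In labelled WT they had 0.17 and 0.28 TPM (Cldn5, 3 and 6 counts) and 0.22 and 0.09 TPM (Sox17, 4 and 3 counts). Both were among 7 markers of the list too low to be tested. Of these, Dll4 and Ly6c1 were also lower in both labelled Hira KO libraries. Lyve1 lay the other way, with 2 and 4 counts in labelled Hira KO and 0 and 1 in labelled WT. Sox7 had 4.12 and 16 counts in labelled Hira KO and 0 and 7 in labelled WT. Pecam1 stood at 30.8 and 21.2 TPM in labelled Hira KO and at 36.0 and 21.1 TPM in labelled WT, with overlapping groups. The part of endothelial cells in the levels of the 8 genes was not tested.

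**Figure D4:**
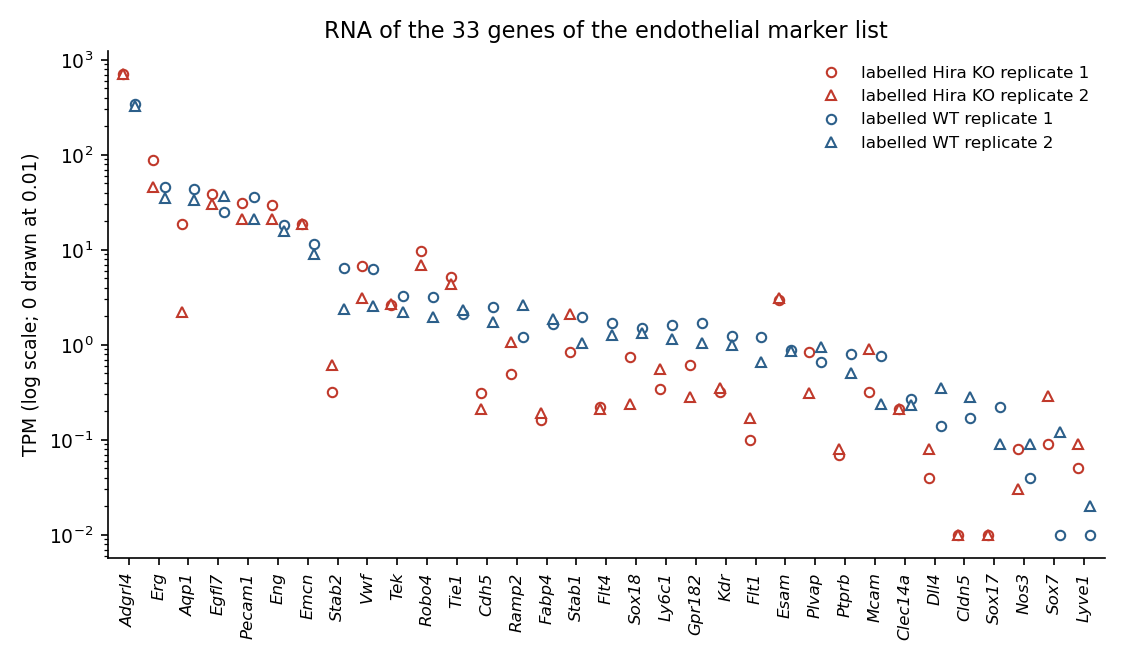
TPM on a log scale of the 33 endothelial markers in each library, ordered by their mean in labelled WT, with 0 drawn at 0.01; labelled Hira KO stands left of labelled WT. Among the abundant markers labelled Hira KO is often higher (Adgrl4, 712.3 and 702.7 TPM in labelled Hira KO against 342.5 and 329.3 TPM in labelled WT), and among the scarce ones, Cdh5 and Stab2 included, it is often lower.

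Markers of some other blood cells moved in the same direction as the 8 genes. The 16 granulocyte and monocyte markers summed to 2687 and 1288 TPM in labelled Hira KO and 5762 and 2932 TPM in labelled WT. Without Mpo they summed to 1724 and 1041 TPM in labelled Hira KO and 3110 and 1624 TPM in labelled WT, which overlapped. Of the 15 tested, 14 lay below 0. The 16 erythroid markers summed to 647 and 224.3 TPM in labelled Hira KO and 870.5 and 863.8 TPM in labelled WT. Without Car1 they summed to 298.8 and 184.1 TPM in labelled Hira KO and 407.7 and 362.2 TPM in labelled WT. The 12 mast cell and basophil markers summed to 80.9 and 57.9 TPM in labelled Hira KO and 161.1 and 97.8 TPM in labelled WT. Without Gata2 they summed to 56.7 and 39.8 TPM in labelled Hira KO and 130.4 and 80.2 TPM in labelled WT. Of the granulocyte and erythroid lists 3 genes passed as lower, Lcn2, Ly6c2 and Tspo2, and 1 as higher, Csf3r, and none of these passed without labelled WT replicate 1 or without labelled WT replicate 2. Mesenchymal stromal markers, whose cells are a main source of Col5a1 in other tissues, summed to 128.9 and 103 TPM in labelled Hira KO and 100.7 and 73.7 TPM in labelled WT, most of it Runx2. Without Runx2 they summed to 23.5 and 21.7 TPM in labelled Hira KO and 37 and 27.8 TPM in labelled WT, and 11 of the 14 tested lay below 0, with a median of -0.56. Runx2 was the 1 call in the list (0.79), and 2 genes were lower by DESeq2. The part of these cells in the levels of the 8 genes was not tested.

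Pik3r6, Fabp4, Sva and Nrp1 were among the 5 tested genes whose profile over the 4 libraries lay nearest to the mean profile of the 8, at distances of 0.195 to 0.307 on the centred log2 scale. Nrp1, a co-receptor for VEGF and semaphorins, had 2.54 and 1.5 CPM in labelled Hira KO and 12.9 and 11.5 CPM in labelled WT. Pik3r6, a regulatory subunit of a phosphoinositide kinase, had 0.881 and 0.541 CPM in labelled Hira KO and 5.45 and 5.03 CPM in labelled WT. Fabp4 had 0.518 and 0.240 CPM in labelled Hira KO and 3.44 and 3.61 CPM in labelled WT. Sva had no counts in labelled Hira KO and 1.80 and 2.46 CPM in labelled WT. With 4 libraries, a near profile says little beyond the shared difference between the groups.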

How the data were processed

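RNA sequencing and ATAC-seq of sorted LSK cells gave 2 libraries labelled Hira KO and 2 labelled WT per assay; groups and numbers came from the titles. Per the labels' protocols, a NuGEN kit amplified the RNA and a Nextera XT kit made the libraries. RSEM 1.3.0, STAR 2.5.3a, MACS2 2.1.1, Bowtie2 2.2.9 and the build GRCm38 are given in the submitters' processing notes, without the step each served. Per the file headers, the RNA files hold the authors' expected count, length and TPM per gene. The deposited expected counts are fractional estimates without normalization, and the deposited TPM sum to the same total per library. The deposited peak lists were made per library and hold the authors' fold enrichment (a ratio) and -log10 q-value.

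Expected counts were rounded and fitted in edgeR 4.0.16 (R 4.3.3; TMM, filterByExpr, robust quasi-likelihood F test, Benjamini-Hochberg over 16258 genes, threshold 0.05). CPM use TMM-scaled library sizes. Alternatives used DESeq2 1.42.0 and limma 3.58.1. Simulated counts were used to test the edgeR fit. IDs matched symbols for 45143 of 45706 genes. Gene positions and promoters are RefSeq's, on GRCm38.p6. Libraries of a group differed by more than sampling noise (chi-square per gene 66.2 in labelled Hira KO and 49.1 in labelled WT). Depth, 16.6 to 19.8 M counts, limits low genes most.

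The 8 genes, the 8 pathway lists and the 11 marker lists were chosen with earlier results of these data known. Named were Hira, the 8 genes, up to 4 called genes and the 2 most abundant others of each list, and the 5 nearest profiles. Paralogs and further markers were named for their family or role after their values were seen. Motif letters and the neighbour distance (on log2(CPM + 0.5)) were set with that rule. Some genes that this rule names are not reported here.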

Additional observations from a re-analysis of the deposited data

How the results depend on the processing

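The log2 fold changes of the 8 genes lay below 0 in all 88 values over the alternatives, and 14 of the 88 moved beyond the spread between replicates. Their median was -2.52, -1.77 by limma on log2(TPM + 1), and -2.68 to -2.49 when 1 library was left out. Calls over all genes (78 lower and 214 higher) became 1017 and 1206 with no low-count filter, 508 and 777 by DESeq2, 44 and 131 by limma on log2(TPM + 1), and 218 and 347 on log2(TPM + 0.1). With 1 library left out they ran from 1 to 1888 lower and from 1 to 1657 higher; the lone library was then assumed to vary like the others. Calls among pathway genes (5 and 5) became 16 and 19 with no filter, 11 and 13 by DESeq2, 0 and 0 by limma on log2(TPM + 1), 1 lower on log2(TPM + 0.1), and 0 to 15 lower and 0 to 25 higher with 1 library left out. The limma fits tested 7 of the 10 called pathway genes. The cause of these shifts was not tested.

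With the replicate number as a block edgeR called 169 lower and 368 higher, 10 pathway genes were higher, and the median of the 8 genes was -2.56. The labels do not say that numbers pair libraries, and the replicate differences of the groups correlated at 0.07 over 16047 genes.

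Regions of labelled WT only near the 8 genes (7) became 3 at a -log10 q of at least 5, and 8 to 19 with 1 list left out. Regions of labelled Hira KO only (1) became 0 in a 2 kb window, 3 in a 50 kb window, 3 at that q, and 1 to 13 with 1 list left out. Leaving out a list loosened the rule for its group to 1 list, so these counts could hardly fall. The depth of the lists is unknown, and genes with under about 20 counts in a library, as Cdh5 in labelled Hira KO, have wide counting intervals.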

Other observations

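The lists of other cell types held few calls by edgeR. Among 8 LSK gate genes Ly6a (log2 fold change 1.57) and Flt3 (1.42) passed as higher, and the list summed to 671.5 and 624.9 TPM in labelled Hira KO and 470 and 385.1 TPM in labelled WT. Of the plasma cell and B cell list, Jchain passed as higher (3.97) and Igll1 as lower (-1.21), and the list summed to 408.6 and 250.4 TPM in labelled Hira KO and 384.1 and 246.2 TPM in labelled WT. Without Jchain it summed to 206.2 and 152.2 TPM in labelled Hira KO and 369.8 and 240.1 TPM in labelled WT, and its median log2 fold change was -0.82, with 7 genes lower at an unadjusted p below 0.05 and 5 lower by DESeq2. Runx2 (0.79), in both the mesenchymal and the plasmacytoid dendritic list, was the 1 call in each, and the dendritic list summed to 260.1 and 182 TPM in labelled Hira KO and 249.4 and 178.1 TPM in labelled WT. Without Runx2 the dendritic list summed to 154.8 and 100.7 TPM in labelled Hira KO and 185.7 and 132.1 TPM in labelled WT, with a median of -0.61 and 3 genes lower at an unadjusted p below 0.05. Megakaryocyte markers summed to 298.9 and 287.5 TPM in labelled Hira KO and 204.5 and 117.3 TPM in labelled WT. Macrophage markers summed to 37.5 and 36.2 TPM in labelled Hira KO and 51.9 and 35.2 TPM in labelled WT, with 0 calls by edgeR, 2 lower at an unadjusted p below 0.05 and 2 lower by DESeq2. T and NK cell markers summed to 152 and 57.4 TPM in labelled Hira KO and 169.8 and 118.1 TPM in labelled WT, with Cd4 (1.77) as the 1 call. Of the 12 mast cell and basophil markers, 10 were tested, with 0 calls by edgeR and 6 lower at an unadjusted p below 0.05, 3 of them lower by DESeq2. None of the 11 calls in lists other than the endothelial one passed without labelled WT replicate 1 or without labelled WT replicate 2 (edgeR adjusted p 0.0558 to 0.454).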
